A study of Mus musculus with 4 samples.

Results

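Mineral is kept out of the artery wall by a small set of proteins, and 10 genes that encode or serve them were read in injured mouse aorta: Mgp, Enpp1, Ank, Abcc6, Nt5e, Ahsg, Tnfrsf11b, Smpd3, Grem1 and Nog. They were taken by gene name from the non-control probes of 4 one-colour arrays, where they had 15 of 56605 probes and made up 10 of 37074 gene names. All 10 had a probe well above background on all 4 arrays and entered the test, as 10 of the 22497 genes tested. Arrays K4 and K5 were labelled SR-A1-/-, a line without the macrophage scavenger receptor that Msr1 encodes. Arrays W2 and W3 were labelled wild type. Both groups were abdominal aorta of male mice of 12 weeks, taken 4 weeks after the operation in which CaPO4 (calcium phosphate, which injures the vessel) was used, and there was no aorta without CaPO4. The labels name neither the allele nor the strain and leave unsaid whether an array stands for 1 animal, while the series' design text speaks of 2 independent experiments. The p-values therefore measure only the spread between these samples, which may be technical.

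Calcium and phosphate in body fluids are close to the point at which they crystallise, and soft tissue stays free of mineral because inhibitors hold crystals back. One branch makes inorganic pyrophosphate outside the cell, which coats nascent hydroxyapatite: Enpp1 splits ATP into AMP and pyrophosphate, Ank and Abcc6 help export the ATP or pyrophosphate, and Nt5e turns the AMP into adenosine, which restrains the alkaline phosphatase that destroys pyrophosphate. Another branch binds mineral or calcium directly, as matrix Gla protein (Mgp) does in the wall and fetuin-A (Ahsg) does in plasma, and a further branch traps cytokines of bone: Grem1 and Nog bind bone-forming BMP ligands, and osteoprotegerin (Tnfrsf11b) binds RANKL, which drives the osteoclasts that resorb bone.

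The readings came from 60-base probes, and the sequences of those on which the results below turn are given first, 5′ to 3′, so that the molecule behind each value can be seen. No letters are in capitals, and probe positions are on mm9. The first 3 are shown whole. The Enpp1 probe lies on the minus strand within chr10:24361749-24365109, and because this stretch is 3361 bases long for a 60-base probe, the probe spans at least 1 intron. The Abcc6 and Nog probes lie on the minus strand at chr7:53232621-53232680 and chr11:89162849-89162908.
Enpp1, A_66_P111135: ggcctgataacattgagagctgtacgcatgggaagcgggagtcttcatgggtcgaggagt
Abcc6, A_66_P109769: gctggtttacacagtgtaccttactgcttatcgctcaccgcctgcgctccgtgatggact
Nog, A_51_P237040: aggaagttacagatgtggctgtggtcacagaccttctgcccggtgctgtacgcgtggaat

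Another 4 are shown by their first 30 bases, for the brightest member, for the pair of members with the largest range over the arrays, and for the second Abcc6 probe, which disagreed with the first. The whole probes lie at chr6:136821125-136821184 (minus strand, Mgp), chr2:113589227-113589286 (minus strand, Grem1), chr16:22899415-22899474 (plus strand, Ahsg) and chr7:53231864-53231923 (minus strand, Abcc6).
Mgp, A_51_P426270: gccgaggagccagatattagcgcgaagaaa
Grem1, A_52_P481957: tcctaaattaattcacttgaccgcgggtgt
Ahsg, A_51_P424854: tgcaaccacgactctgaaaggtgctcttgc
Abcc6, A_55_P1969904: gtgtgcacatattccctaactccttatttt

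Levels are log2 of the processed signal minus the array's 75th percentile of it, so that 0 is a signal at that percentile. Differences are log2 levels of SR-A1-/- minus wild type by label, given ± the standard error of limma, a linear model that shares the estimate of spread over genes. The 75th percentile was 245 and 133 on K4 and K5 and 132 and 220 on W2 and W3, so K4 and W3 were the arrays of high signal and K5 and W2 those of low signal. Each array had 57.6% to 62.6% of its probes well above background, and precision is set by there being 2 arrays per label. Msr1 went against the labels: its tested probe read -1.26 and -2.09 on K4 and K5, against -5.30 (not well above background) and -2.10 on W2 and W3. That is a difference of 2.03 ± 1.09 (limma adjusted p = 0.965), which was 0.42 without W2 and 3.63 without W3 (limma adjusted p = 0.0105). The second Msr1 probe read -1.50 and -1.38 on K4 and K5, against -6.40 (not well above background) and -2.12 on W2 and W3, also against the labels, so all directions refer to the labels. Which part of Msr1 is missing in the line is not given in the sources used here, and a probe that lies elsewhere is no check of genotype. Smooth muscle, the defining cell of the wall, was present on every array, with all 10 of its listed markers tested. Markers of other cell types and of tissue around the vessel differed between arrays. Of 10 macrophage markers 6 had both SR-A1-/- arrays above both wild type arrays with an unadjusted p under 0.05, 1 (Mertk) had both below, and the median difference of the 10 was 1.21. Of all genes 16.1% had both above and 13.7% both below. Skeletal muscle markers had summed levels (log2 of the summed signals) of 7.10 and 7.87 on K4 and K5 and 10.11 and 8.39 on W2 and W3. Of the 10, 2 were higher and 5 lower at an unadjusted p under 0.05, against 3.84% higher and 2.45% lower over all genes. Brown adipocyte markers summed to 7.35 and 2.94 on K4 and K5 and 5.30 and 8.96 on W2 and W3.

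No inhibitor of mineralisation differed between the groups by the test. Of the 10 members 0 passed an adjusted p of 0.05, as did 0% of all genes tested, and 0 of 10 had an unadjusted p under 0.05, against 6.29% of all genes. None of the 14 member probes tested passed either, against 0.00855% of all probes. The median of their differences was 0.06, beside -0.01 over all genes, with 5 of 10 members above 0, against 49.3% of all genes. Grem1 alone had both SR-A1-/- arrays above both wild type arrays, which 16.1% of all genes did, and it alone had a difference of at least 2-fold. Of all genes 6.4% combined a 2-fold difference with groups that did not overlap, and 3.96% did so with higher levels on the SR-A1-/- arrays. The smallest adjusted p, 0.862, was also that of Grem1, and the adjusted p of the other 9 rounded to 1. All 10 of the 95% intervals included 0, and only that of Enpp1 lay within a 2-fold change in either direction. The intervals of 8 members reached past 2-fold higher and those of 4 past 2-fold lower, so changes of that size could not be told from the spread at 2 arrays per group.

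**Figure D1:**
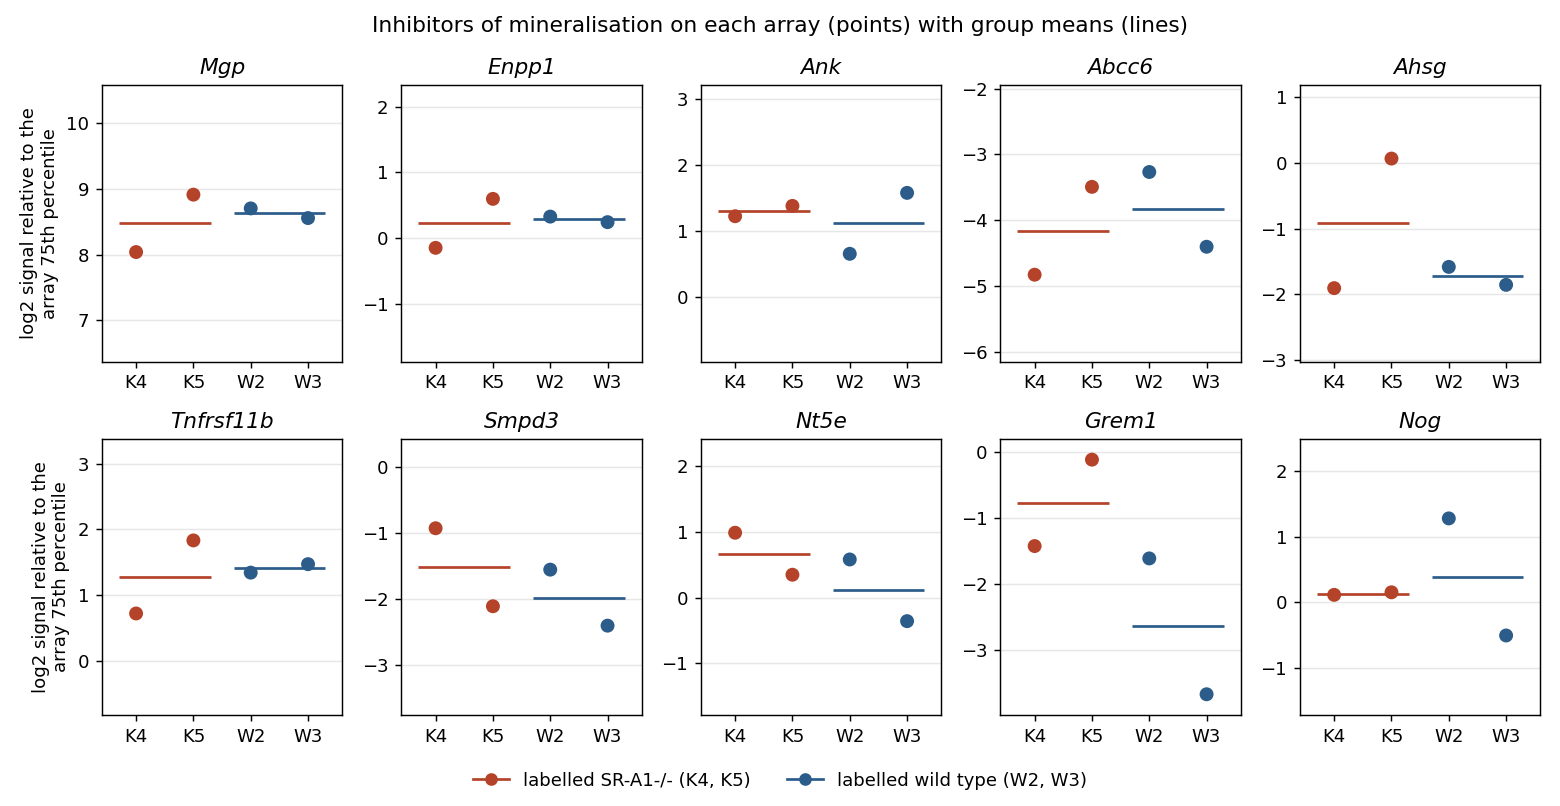
Level of each of the 10 genes on each array (points), in log2 relative to the array's 75th percentile, with the group means as lines; K4 and K5 are labelled SR-A1-/- and W2 and W3 wild type, and every panel spans the same number of log2 units. Only Grem1 has both SR-A1-/- arrays above both wild type arrays, and there K4 at -1.43 is close to W2 at -1.61.

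Mgp encodes a small vitamin K-dependent protein of smooth muscle cells and chondrocytes, and mice without it calcify their arteries. Its level was 8.04 on K4 and 8.91 on K5, against 8.70 on W2 and 8.56 on W3. Both wild type arrays lay between the SR-A1-/- arrays, which were 0.87 apart. Mgp differed by -0.15 ± 0.39, with a 95% interval of -1.16 to 0.85, and by 0.28 without K4. Its processed signal was not saturated on any array.

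Fetuin-A, the product of Ahsg, is made chiefly in liver and carries calcium phosphate in the blood as soluble particles. Ahsg read -1.91 on K4 and 0.06 on K5, against -1.58 and -1.86 on W2 and W3. K5 stood apart and the other 3 arrays lay close together. The group difference of 0.80 ± 0.69 (95% interval -0.98 to 2.57) was -0.19 without K5. Hepatocyte markers had their highest sum on K4: 5 of 10 were tested, and their summed level was 5.52 and 4.78 on K4 and K5 and 4.61 and 5.16 on W2 and W3. The fibrinogen genes Fga and Fgb and the thyroid hormone carrier gene Ttr were above background on no array. Alb and Apoa1 were above background on some array but did not enter the test, so the sum lacks them. Taken singly the tested markers were mixed: Apoa2 and Apoh were highest on K5, as Ahsg was, Serpina1a on K4, Trf on W3 and Tat on W2. Chondrocyte markers, 5 of 8 tested, had their highest summed level on K5, as Ahsg did, at 6.31, against 4.90 on K4, 4.20 on W2 and 4.12 on W3. This sum is led by Comp, at 6.05 on K5 and 4.49 on K4. Of the tested chondrocyte markers Hapln1 alone was not highest on K5. White adipocyte markers had their lowest sum on K5, at 5.80, against 9.43 on K4, 8.81 on W2 and 9.56 on W3. The part of these tissues in the Ahsg reading was not tested. In bulk tissue, more cells of a type and more RNA per cell cannot be told apart.

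Enpp1, the ectoenzyme that generates pyrophosphate, varied least of the members. Its junction-spanning probe read -0.15 and 0.60 on K4 and K5, against 0.33 and 0.24 on W2 and W3. The wild type arrays again lay between the SR-A1-/- arrays, and the difference was -0.06 ± 0.36 (95% interval -0.99 to 0.87), or 0.31 without K4. A second probe (A_51_P408584, chr10:24358048-24358107, minus strand) read 0.14 and 0.18 on K4 and K5, against -0.17 and 0.29 on W2 and W3. The last probe (A_55_P2713490, chr10:24388292-24388351, minus strand), assigned to another transcript, was dim, at -4.31 and -3.66 against -4.76 (not well above background) and -3.83. None of the 3 separated the groups.

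Ank, a membrane protein through which ATP and pyrophosphate leave cells, read 1.22 and 1.38 on K4 and K5, against 0.65 on W2 and 1.58 on W3 (chr15:27523965-27524024, plus strand). The SR-A1-/- arrays were close together and both lay between the wild type arrays. Ank differed by 0.19 ± 0.40 (95% interval -0.85 to 1.23), and by -0.28 without W2.

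Abcc6 is a transporter found mainly in liver, and its loss causes pseudoxanthoma elasticum, with calcified elastic fibres. Its probes gave different orders of the arrays. The tested probe read -4.83 on K4 and -3.49 on K5, against -3.27 on W2 and -4.40 on W3, a difference of -0.33 ± 0.62 (95% interval -1.92 to 1.27). The second probe read -3.45 on K4 and -5.13 on K5, where it was not well above background, against -3.47 on W2 and -4.80 on W3. K4 was thus the lowest array by 1 probe and the highest by the other, while W2 was above W3 by both. Both probes were near the lowest signal called well above background, which was between -5.03 and -4.26 on the 4 arrays. The difference of the tested probe was 0.34 without K4 and 0.24 without W2.

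Nt5e encodes CD73, the ectoenzyme that makes adenosine from AMP, and people who lack it calcify the arteries of the legs. Nt5e read 0.99 and 0.35 on K4 and K5, against 0.58 and -0.36 on W2 and W3 (chr9:88266616-88266675, plus strand). W3 was lowest, and W2 lay between the SR-A1-/- arrays. The difference was 0.56 ± 0.45 (95% interval -0.61 to 1.72), which was 1.03 without W2 and 0.09 without W3. Its second probe was above background on no array and gives no level.

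**Figure D2:**
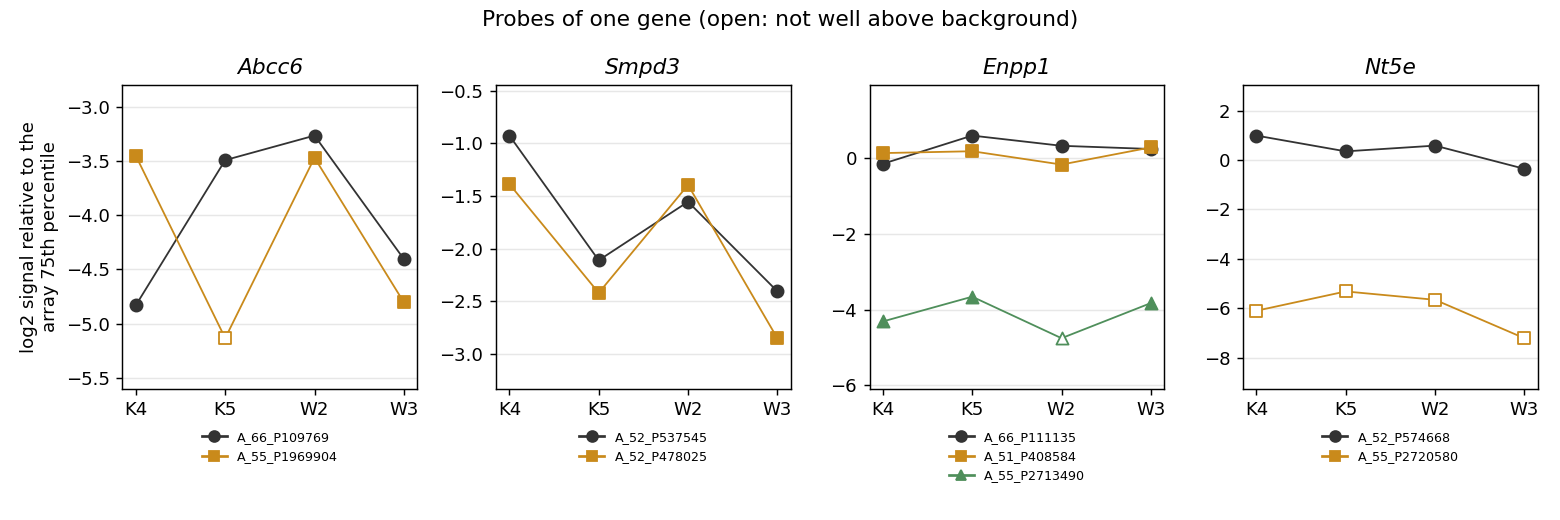
Levels (log2 relative to the array's 75th percentile) of every probe of the 4 members with more than 1 probe, by array; filled symbols are well above background and open ones are not. The 2 Smpd3 probes follow each other, whereas the 2 Abcc6 probes part on K4 and K5.

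Osteoprotegerin, encoded by Tnfrsf11b, is a secreted decoy receptor, and mice without it lose bone and calcify the aorta. Its level was 0.72 on K4 and 1.83 on K5, against 1.34 on W2 and 1.47 on W3 (chr15:54082760-54082819, minus strand). As with Mgp and Enpp1, K4 was lowest, K5 highest and the wild type arrays lay between them. Tnfrsf11b differed by -0.13 ± 0.45 (95% interval -1.28 to 1.02), and by 0.42 without K4.

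Smpd3 encodes neutral sphingomyelinase 2, which releases ceramide from membranes. In mice its loss impairs the mineralisation of bone and cartilage, so it is not a simple inhibitor. The tested probe (chr8:108776790-108776849, minus strand) read -0.93 and -2.11 on K4 and K5, against -1.56 and -2.41 on W2 and W3. The other probe (chr8:108778800-108778859, minus strand) read -1.39 and -2.42 against -1.40 and -2.85. By both probes K4 and W2 were above K5 and W3. The difference of 0.46 ± 0.54 (95% interval -0.93 to 1.85) was -0.13 without K4.

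Grem1 and Nog are secreted antagonists that bind BMP ligands and keep them from their receptors. Grem1 read -1.43 on K4 and -0.11 on K5, against -1.61 on W2 and -3.68 on W3. K5 was high and W3 low, while K4 and W2 were close. The difference of 1.88 ± 0.82 had a 95% interval of -0.25 to 4.00, and the range of 3.57 over the 4 arrays was exceeded by 2.01% of all genes. It was 0.84 without W3, 2.91 without W2 (limma adjusted p = 0.0553), 2.54 without K4 and 1.22 without K5, and 0.86 with normexp background correction. As both SR-A1-/- arrays were above both wild type arrays, the sign was necessarily the same in each pair of like signal. The difference was 2.25 between K4 and W3 and 1.5 between K5 and W2. Adventitial fibroblast markers, all 10 tested, had summed levels of 10.53 and 11.15 on K4 and K5 and 11.09 and 10.37 on W2 and W3, and W3, the array with the lowest Grem1, was also lowest by this sum. Both adipocyte sums were lowest on K5, where Grem1 was highest, and highest on W3, where it was lowest. K4 was above W2 in both sums, as it was in Grem1. White adipocyte markers summed to 9.43 and 5.80 on K4 and K5 and 8.81 and 9.56 on W2 and W3. Of these 10 markers 9 had a difference below 0. The other, Lep, had the order of Grem1, at -1.02 and -0.63 on K4 and K5 and -1.10 and -1.64 on W2 and W3. Of 10 macrophage markers 6 were higher on both SR-A1-/- arrays, as Grem1 was, against 16.1% of all genes. Mertk, 1 of the 10, was lower on both, against 13.7% of all genes. The summed level of the macrophage markers was 7.81 and 7.47 on K4 and K5 and 6.01 and 8.16 on W2 and W3. By this sum W3, the array with the lowest Grem1, was highest. The part of these cell types in the Grem1 reading was not tested.

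The 250 bases before the RefSeq start of Grem1, the member with the largest difference, stand here (GRCm38.p6, chr2:113758649-113758898, minus strand). Capitals mark GGCGCC, a GC-rich element that BMP-activated SMAD proteins can bind, and CCAAT, searched on both strands together with TATAAA.
Grem1 promoter: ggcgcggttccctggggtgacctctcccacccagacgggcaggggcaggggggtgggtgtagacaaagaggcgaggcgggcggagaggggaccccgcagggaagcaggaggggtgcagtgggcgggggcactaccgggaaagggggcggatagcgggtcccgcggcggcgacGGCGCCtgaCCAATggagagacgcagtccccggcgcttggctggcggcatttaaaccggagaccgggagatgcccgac

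GGCGCC began 78 bases and CCAAT 69 bases before the start, and TATAAA had 0 matches. Among 32851 RefSeq promoters, 9.59% held GGCGCC in the same window, 33.8% held CCAAT and 12.4% held TATAAA. Promoters were matched for 5 of the 10 members. Ank had 3 matches to GGCGCC, and the promoters of Enpp1, Ahsg and Nt5e had 0 matches to any of these motifs. A match describes letters in the window and nothing of binding.

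Nog read 0.11 on K4 and 0.15 on K5, against 1.28 on W2 and -0.50 on W3. The SR-A1-/- arrays were 0.04 apart and the wild type arrays 1.78 apart, on either side of them. Nog differed by -0.25 ± 0.63 (95% interval -1.87 to 1.37), and by 0.64 without W2. Of the 2 antagonists among the members, then, Grem1 was higher and Nog lower in the mean of the SR-A1-/- arrays, and neither passed the test.

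**Figure D3:**
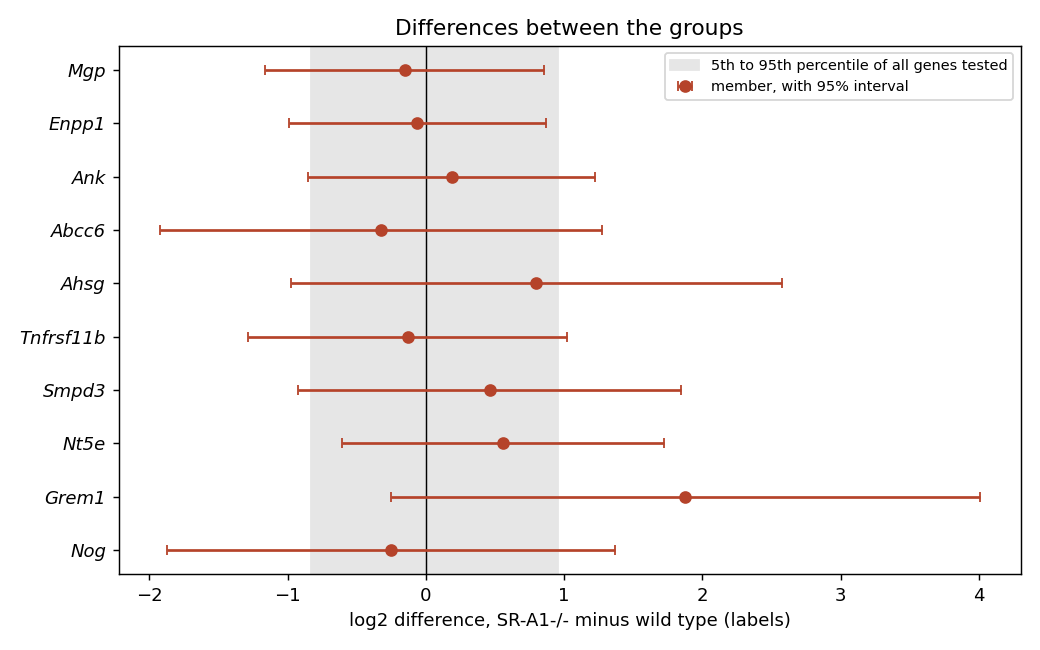
Log2 difference of SR-A1-/- minus wild type by label for each member (point) with its 95% interval from limma; the grey band holds the 5th to 95th percentile of the differences of all genes tested, -0.83 to 0.96. All 10 intervals cross 0, and the point of Grem1 at 1.88 lies outside the band.

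In 10 of 10 members the gap between the 2 arrays of at least 1 label exceeded the group difference, as it did in 79.9% of all genes. The median gap was 0.99 between K4 and K5 and 0.89 between W2 and W3, against 0.39 and 0.43 over all genes. The median range over the 4 arrays was 1.41 for the members and 0.76 over all genes. Mgp, Enpp1, Ahsg and Tnfrsf11b, 4 members, were lowest on K4 and highest on K5, an order that 6.99% of all genes had. Contractile smooth muscle markers had summed levels of 10.54 and 10.90 on K4 and K5 and 11.33 and 10.84 on W2 and W3, so K4 was lowest for them as well. All 10 of these markers had a difference below 0, with a median of -0.46, while 49.3% of all genes had one above 0. Without overlap 5 of the 10 were lower, against 13.7% of all genes. The part of smooth muscle in the order of the members was not tested.

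Between arrays of like signal the members moved both ways. The difference had the same sign in the pair of high signal (K4 minus W3) and the pair of low signal (K5 minus W2) in 2 of 10 members, Grem1 and Abcc6, and in 59.9% of all genes. For Grem1 this follows from groups that do not overlap. For Abcc6 the differences were -0.42 between K4 and W3 and -0.23 between K5 and W2 by the probe that stands for it. Its second probe had opposite signs, at 1.35 between K4 and W3 and -1.66 between K5 and W2. Smpd3 and Nt5e were higher on K4 than on W3, by 1.48 and 1.34, and differed by -0.56 and -0.23 between K5 and W2. Nog differed by 0.62 between K4 and W3 and by -1.12 between K5 and W2. In the other direction, Tnfrsf11b differed by -0.75 between K4 and W3 and by 0.49 between K5 and W2, and Ahsg by -0.05 and 1.65. With signal level as a block the adjusted p of Grem1 was 0.254.

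**Figure D4:**
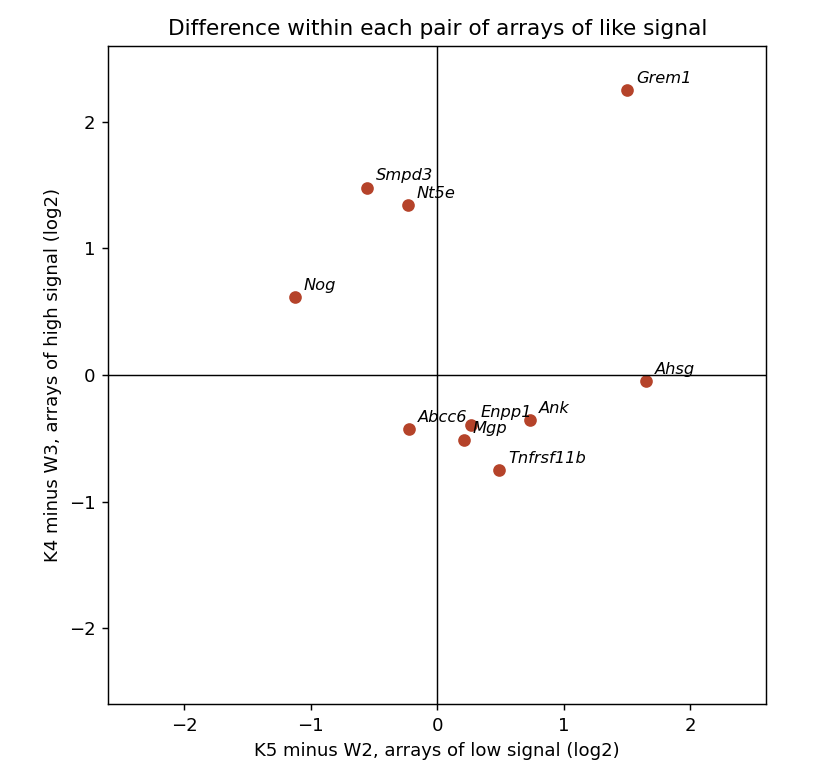
Difference of each member between the arrays of high signal (K4 minus W3, vertical) and between those of low signal (K5 minus W2, horizontal), both in log2. Grem1 lies in the upper right and Abcc6 in the lower left, where both pairs have one sign, and the other 8 members lie in the quadrants of opposite sign. Each member is shown by its brightest tested probe, and the second Abcc6 probe, not shown, had opposite signs.

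Genes with the closest profiles of levels were looked for around the 3 members of largest range, by the root mean square distance over the 4 arrays between profiles centred on their own mean. A gene close by this distance need not have the same order of arrays. Among 13410 named genes above background on all arrays, those nearest to Grem1 were Ccr6, Fam180a and Tnnt2, at distances of 0.16, 0.24 and 0.26. Lppr3, Ucp2 and Myh7 were nearest to Ahsg, at 0.08, 0.10 and 0.12, and Klk1b3, Mill2 and Wfdc13 to Nog, at 0.07, 0.11 and 0.11. Within a distance of 0.25 there were 2 genes for Grem1, 7 for Ahsg and 42 for Nog. With 4 arrays such likeness is a description alone.

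The partners of these inhibitors were read from 7 lists that hold 88 genes, of which 81 were tested. None passed an adjusted p of 0.05 (the lowest was 0.281), while 7 were higher and 3 lower at an unadjusted p under 0.05, or 12.3%, against 6.29% of all genes (3.84% higher and 2.45% lower). Their groups did not overlap in 17 genes that were higher and 18 that were lower on the SR-A1-/- arrays, or 43.2%, against 29.8% of all genes (16.1% higher and 13.7% lower). Both counts of higher genes include Matn3, which passed the filter only through the SR-A1-/- arrays. The median difference over the 81 was 0.01.

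In the pyrophosphate, phosphate and adenosine list, 17 of 17 genes were tested, 2 had both SR-A1-/- arrays above and 6 below both wild type arrays, and the median was -0.18. Phospho1, a phosphatase that supplies phosphate inside the matrix vesicles of bone and cartilage, read -4.54 and -4.37 on K4 and K5, against -2.79 and -2.72 on W2 and W3. Its groups stood apart with little spread, at -1.70 ± 0.28 (limma adjusted p = 0.281). On K4 and K5 it was near the lowest signal called well above background, -5.03 and -4.49, which limits the size of this difference. Ada, the deaminase that removes adenosine, read 1.63 and 1.14 against -0.14 and 0.26, a difference of 1.32 ± 0.34 (limma adjusted p = 0.535), and its second probe differed by 0.13. The phosphate exporter gene Xpr1 read 3.16 and 3.28 on K4 and K5, against 3.74 and 3.82 on W2 and W3, with all 4 of its tested probes lower in the mean of the SR-A1-/- arrays.

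BMP ligands, receptors and targets, 20 of 21 tested, went both ways, with 5 above and 3 below without overlap and a median of 0.03. Bmp5, a BMP ligand, read -2.28 and -1.77 on K4 and K5, against -3.64 and -4.42 on W2 and W3, a difference of 2.0 ± 0.40 (limma adjusted p = 0.377). Id4, of a family of inhibitory factors that includes BMP targets, and the ligand gene Bmp6 differed by 0.52 ± 0.30 and 0.69 ± 0.43. Among the other secreted antagonists, 10 of 12 were tested, 2 were above and 3 below without overlap, and the median was 0.06. Fstl3, which binds activins, differed by -0.78 ± 0.27 and Sost, the Wnt antagonist sclerostin, by -0.75 ± 0.28. Their limma adjusted p was 0.733 and 0.776.

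None of the tested ligands and partners of osteoprotegerin was called. Of 6 genes 5 were tested, with 2 above and 2 below without overlap and a median of 0.47. The gene of RANKL, Tnfsf11, was the one not tested. Traf6, the adaptor that carries the RANK signal, differed by 0.87 ± 0.32 at its tested probe and by -1.28 at another of its 5 tested probes. Tnfrsf10b, a receptor for the osteoprotegerin ligand TRAIL, differed by -0.87 ± 0.48, and RANK itself, Tnfrsf11a, by -0.39 ± 0.28.

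Of the vitamin K, Gla and mineral-binding genes 11 of 13 were tested, with 3 above and 1 below without overlap and a median of 0.27. Ggcx, the carboxylase that activates Mgp and other Gla proteins, read 2.31 and 2.19 on K4 and K5, against -0.30 and 1.38 on W2 and W3. The difference of 1.71 ± 0.60 (limma adjusted p = 0.733) goes with a gap of 1.68 between W2 and W3. Matn3, a cartilage matrix protein, was well above background on both SR-A1-/- arrays and on neither wild type array. It thus passed the filter only through the arrays on which it was high, and its place among the higher genes is no support. Its mean on the SR-A1-/- arrays was 1.49-fold above a floor for the wild type arrays. That floor takes, for each wild type array, its own value or the lowest signal called well above background, whichever was higher. The fit gave an adjusted p of 0.63. Ibsp, bone sialoprotein, was above background on 1 of the 2 SR-A1-/- arrays and read -6.27 and -2.65 on K4 and K5, against -1.94 and -2.39 on W2 and W3. Spp1, which encodes the mineral-binding protein osteopontin, was chosen after its values were seen. It read 1.36 and 4.61 on K4 and K5, against -1.81 and 2.73 on W2 and W3. The difference of 2.53 ± 1.80 was larger than that of any member and was not called. Spp1 had opposite signs in the pairs of like signal, at -1.37 between K4 and W3 and 6.42 between K5 and W2. Its gap of 4.54 between W2 and W3 exceeded the group difference. Macrophages are a known source of osteopontin, and macrophage markers, 10 of 10 tested, had summed levels of 7.81 and 7.47 on K4 and K5 and 6.01 and 8.16 on W2 and W3. The sum is led by Lyz2, at 7.06 and 6.78 against 5.25 and 7.86, whereas 6 of the 10 markers were higher without overlap, against 16.1% of all genes. The part of macrophages in the Spp1 reading was not tested.

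Sphingomyelin and ceramide enzymes, 10 of 10 tested, had a median of 0.0040, with 1 above and 2 below without overlap. The sphingosine kinase gene Sphk2 differed by -0.52 ± 0.32, the sphingomyelin synthase gene Sgms1 by 0.39 ± 0.30 and the ceramidase gene Asah1 by 0.36 ± 0.36. Osteochondrogenic factors, 11 of 12 tested, had a median of -0.13, with 2 above and 2 below. Comp, a cartilage matrix protein, read 4.49 and 6.05 on K4 and K5, against 3.52 and 3.47 on W2 and W3, a difference of 1.77 ± 0.57 (limma adjusted p = 0.688) that was largest on K5. The BMP-induced transcription factor gene Msx2 differed by -0.58 ± 0.31.

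**Figure D5:**
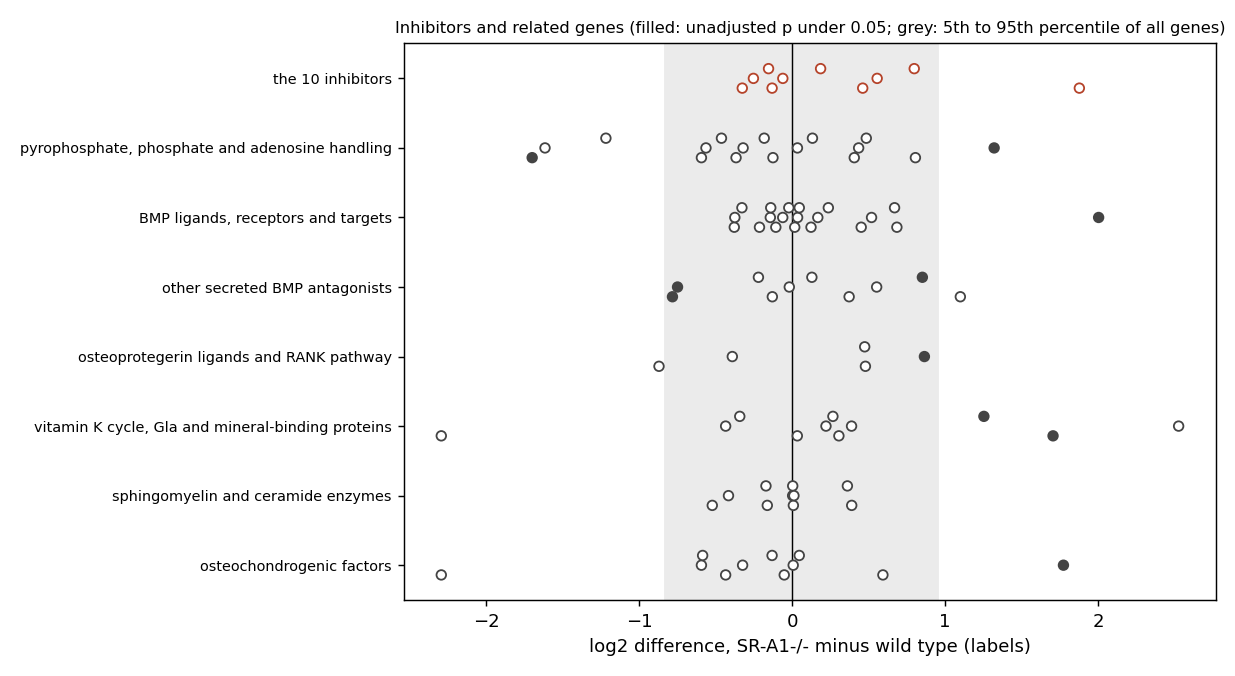
Log2 difference of SR-A1-/- minus wild type by label for the 10 inhibitors (top row) and for the tested genes of each of the 7 related lists (1 row each, points shifted vertically to be seen); filled points have an unadjusted limma p under 0.05, and the grey band holds the 5th to 95th percentile of all genes. No inhibitor is filled, and the lists hold 7 filled points on the higher side and 3 on the lower.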

How the data were processed

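RNA of 4 aorta samples was labelled with Cy3 and hybridised to Agilent mouse arrays, all on 1 slide with 1 scan time. The processed signal is an intensity that the authors obtained with Agilent Feature Extraction 12.0.3.1 per the file headers (10.7 in the submitters' processing notes, which also name limma), background-subtracted and detrended but not normalised between arrays. Mean and background signals, used for normexp, are raw intensity values, and the flags are 0 or 1 per the file headers. Values in the deposited table are log2, with columns of nearly equal distribution (medians 4.31 to 4.32). Its direction follows that of the signals, and how it was normalised is not given in the sources used here.

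Outlier spots were left out, spots of a probe averaged, log2 signals set against the array's 75th percentile, and probes kept that were well above background on at least 2 arrays (35102). The brightest probe stood for a gene. Under R 4.3.3, limma 3.58.1 (lmFit, then eBayes) tested each of the 22497 genes on both sides, and p-values were adjusted over all of them by Benjamini-Hochberg. The fit and the adjustment, not the steps before them, were checked on simulated data. Every probe was also fitted. Files were read by the data.table package (1.17.8). Probe sequences came from the array files and promoters from RefSeq (GRCm38.p6), and the figures were made by Python 3.11.15 and matplotlib 3.10.9.

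The members, lists and alternatives were chosen with earlier results of these data known. All members were named, with the 3 genes of smallest p in each related list and the 3 nearest profiles of the 3 members of largest range; 1 gene that the rule names is not reported here. The alternatives were other normalisations, background correction, filters, outlier spots kept, probe means, eBayes settings, array weights, the deposited values, signal level as a block, and each array left out.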

Additional observations from a re-analysis of the deposited data

How the results depend on the processing

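No member passed an adjusted p of 0.05 under any of the 17 alternatives (smallest 0.0553, Grem1 without W2), and 10 of 170 member differences turned. Of the 170, 67 equal the main difference exactly, as settings of the error model, the filter or the probe mean can leave it as it is, so 103 could show a turn. With all arrays kept, 1 turned: Enpp1, at 0.12 with the mean of its probes. Leaving out 1 array at a time, the differences spanned -0.59 to 0.28 for Mgp, -0.43 to 0.31 for Enpp1, -0.28 to 0.65 for Ank, -0.99 to 0.34 for Abcc6, -0.19 to 1.78 for Ahsg, -0.69 to 0.42 for Tnfrsf11b, -0.13 to 1.05 for Smpd3, 0.09 to 1.03 for Nt5e, 0.84 to 2.91 for Grem1 and -1.14 to 0.64 for Nog. The lone array was then assumed to vary like the other group. The members' median spanned -0.23 to 0.44. Over all genes, 0 passed by limma, and 1416 had an unadjusted p under 0.05. Quantile normalisation, cyclic loess, no filter and the deposited values each called 8 genes, median scaling 7, normexp 22, an intensity trend 5, array weights 2, and leaving out 1 array 0 to 371 (260 without W2, 371 without W3 and 0 without K4 or K5). Probes called were 3, against 11, 9, 66, 12, 14 and 10 with quantile, median scaling, normexp, no filter, a trend and the deposited values, 1 with all 4 arrays above background, 0 with signal level as a block, and 0 to 429 without 1 array. Genes differing 2-fold without overlap were 1439, against 409 with normexp, 2314 without a filter, 911 above background on all arrays and 2068 to 2885 without 1 array. The cause was not tested. No paired analysis was possible because the labels share no number between the groups; the block of signal level pairs arrays by brightness, not by label. Low signals limit Abcc6, whose probes were near background.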
